A study of Homo sapiens and Homo sapiens
Mus musculus and Mus musculus with 200 samples.

Results

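HAND2loop and HAND2ins are forms of the transcription factor TWIST1 that the plasmid labels name for HAND2 sequence, and this account follows where each of them was bound in HEK293 cells with and without the partner ALX4. The members are 4 of the 200 samples of the series, chosen by their plasmid labels: V5-tagged TWIST1(HAND2loop) and TWIST1(HAND2ins), each transfected alone and together with ALX4-Flag, 1 peak list per condition. The reference is TWIST1(WT), the unaltered factor, with 3 lists alone and 3 with ALX4-Flag. HEK293 is an established human embryonic kidney line with an unedited (WT) genotype here. All constructs were carried by pcDNA3.1 plasmids delivered with Lipofectamine, so every TWIST1 form measured was an introduced, V5-tagged one, and chromatin was collected 24 h after transfection and precipitated with an antibody to V5. The labels do not say which residues were exchanged, so the names are used as given. They also do not say that lists of a group came from separate cultures, and the tests over TWIST1(WT) lists measure only the spread between those lists, which may be technical.

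TWIST1 and HAND2 are basic helix-loop-helix (bHLH) factors. They bind DNA as dimers, usually with an E protein, and the basic region of each partner reads one side of a short palindromic sequence called the E-box. The loop joins the helices that hold the dimer together. ALX4 is a paired-type homeodomain factor of the facial and limb mesenchyme, the embryonic connective tissue in which TWIST1 and HAND2 also act, and homeodomains read short sites rich in A and T. A bHLH factor and a homeodomain factor can share a composite site in which an E-box and a homeodomain site lie at a fixed distance.

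The composite motif counted here was an E-box (CAGATG, which reads CATCTG on the other strand, CATATG or CAGCTG) and a homeodomain site (TAATTA, or TAATTG, which reads CAATTA on the other strand) with 4 bp between them, on either strand, in a window reaching 100 bp to either side of the peak summit. The sequences below are those of the composite peaks with the highest enrichment in the lists with ALX4, and of the highest-ranked composite site gained in every construct. Each runs 5' to 3' in hg38, on the forward strand for LGI1, PTGFRN, IGFBP7 and SCIN and on the reverse strand for the others. The capitals mark the E-box and then the homeodomain site.
LGI1: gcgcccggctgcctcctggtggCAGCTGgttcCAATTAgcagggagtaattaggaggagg
PTGFRN: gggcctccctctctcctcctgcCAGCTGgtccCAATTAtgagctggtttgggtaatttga
HOOK1: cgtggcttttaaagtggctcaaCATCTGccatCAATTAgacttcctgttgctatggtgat
TRIM9: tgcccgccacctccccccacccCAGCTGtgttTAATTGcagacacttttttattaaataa
HHIPL2: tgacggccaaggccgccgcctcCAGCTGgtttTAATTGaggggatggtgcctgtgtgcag
BACH1: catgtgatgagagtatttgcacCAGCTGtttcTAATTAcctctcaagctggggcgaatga
IGFBP7: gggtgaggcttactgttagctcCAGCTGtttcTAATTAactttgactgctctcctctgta
LRRC3C: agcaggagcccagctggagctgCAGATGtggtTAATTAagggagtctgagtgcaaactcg
SCIN: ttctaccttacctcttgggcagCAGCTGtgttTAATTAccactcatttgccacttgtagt

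The deposited lists held 18061 peaks for HAND2loop and 22820 for HAND2loop with ALX4. They held 30062 for HAND2ins and 47086 for HAND2ins with ALX4. The TWIST1(WT) lists held 30471, 22465 and 56014 peaks alone and 29430, 41369 and 65005 with ALX4, in the order of replicates 1 to 3. Median fold enrichment over background, the authors' own value per peak, was between 4.07 and 4.50 in the 4 HAND2 lists and between 3.87 and 5.01 in the 6 TWIST1(WT) lists. Cells given the plasmid pUC19, without a TWIST1 form, had 463 V5 peaks. Peaks overlapping one of these numbered 134 to 297 in the HAND2 lists, 0.631% to 0.947% of a list. The read depth behind a list is unknown and the lists differ in length, so shares were also taken over the 2000 peaks with the highest -log10 p of each list. With 1 list per arm there is no test for HAND2loop or HAND2ins. Their shares carry Wilson 95% intervals, which cover counting error only.

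A first question was how far the list of each form differed between the arms without and with ALX4. A peak of the list with ALX4 that overlapped no peak of the same form without ALX4 by at least 1 bp is called gained, and a peak found only without ALX4 is called lost. HAND2loop had 13211 gained peaks, 57.9% of its list with ALX4, and 8346 lost peaks, 46.2% of its list alone. HAND2ins had 27708 gained peaks, 58.8%, and 10218 lost peaks, 34.0%. TWIST1(WT) lists with the same replicate number gave 60.1%, 68.7% and 55.7% gained and 61.6%, 42.5% and 48.9% lost. The labels do not say that the number pairs lists, so a TWIST1(WT) pair below means a pair of lists set side by side by number. Over all 9 combinations of a list alone and a list with ALX4 the gained share ran from 49.8% to 74.4% and the lost share from 26.1% to 73.0%. Both HAND2 forms lay inside these ranges. TWIST1(WT) lists of one condition also differed from each other. Of the peaks of one such list alone, 34.1% to 85.5% overlapped a peak of another list alone. Between lists with ALX4 the range was 37.1% to 79.7%. Turnover of this kind therefore also arises with no change of condition.

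Most of this turnover was among weak peaks. Of the 2000 strongest peaks with ALX4, 20.55% were gained in HAND2loop (interval 18.8 to 22.4) and 9.0% in HAND2ins (7.82 to 10.3), against 32.9%, 38% and 16.9% in TWIST1(WT). HAND2ins lay below all 3 TWIST1(WT) pairs, and HAND2loop lay between replicate 3, which has the longest lists, and the others. Among the 2000 strongest peaks without ALX4, 10.65% were lost in HAND2loop and 2.4% in HAND2ins, against 22.9%, 13.95% and 5.90% in TWIST1(WT). HAND2ins was again below every TWIST1(WT) pair, and below all 9 combinations in both shares (lowest 16.9% gained and 5.70% lost). Between TWIST1(WT) lists of one condition, 91.05% to 99.25% of the 2000 strongest peaks overlapped alone, and 96.15% to 100% with ALX4. Of the 2000 strongest with ALX4, 79.45% in HAND2loop and 91.0% in HAND2ins overlapped the list alone. Of the 2000 strongest alone, 89.35% and 97.6% overlapped the list with ALX4. Median enrichment of gained peaks was 4.16 in HAND2loop and 3.92 in HAND2ins, and that of peaks kept from the list alone was 5.08 and 5.30. The share gained grew with rank, from 8.40% of the 500 strongest HAND2loop peaks to 66.9% of ranks 10001 to 20000, and in HAND2ins from 3.80% to 50.9%.

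**Figure D1:**
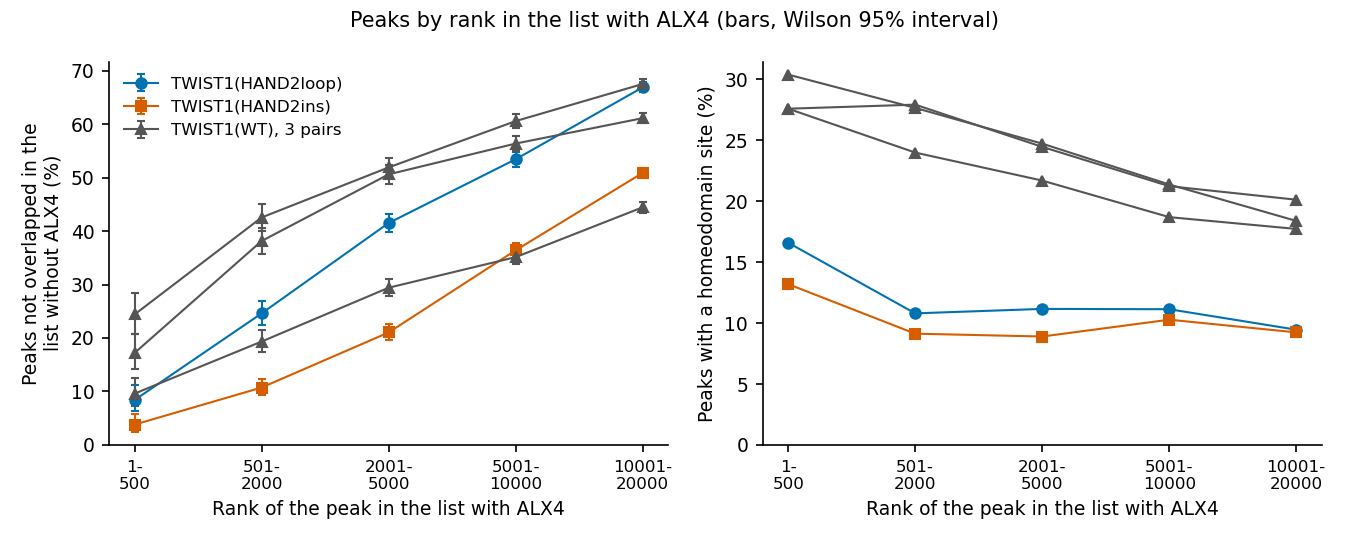
Left, share of peaks with ALX4 that had no overlapping peak in the list of the same construct without ALX4 (%, Wilson 95% intervals), by rank of the -log10 p in the list with ALX4. Right, share of the same peaks with a homeodomain site within 100 bp of the summit (%). HAND2ins had the lowest gained share in the first 3 rank groups, and both HAND2 lists lay below the 3 TWIST1(WT) lists in homeodomain site share in every group.

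A gained peak of one list was often a called peak of another construct alone. Of the 13211 HAND2loop gained peaks, 75.9% lay in at least 1 TWIST1(WT) list without ALX4, 40.4% lay in the HAND2ins list without ALX4, and 21.6% lay in none of those 4 lists. Of the 27708 HAND2ins gained peaks, 52.7% lay in at least 1 TWIST1(WT) list without ALX4, 10.6% in the HAND2loop list without ALX4 and 45.5% in none of the 4. Among gained peaks within the 2000 strongest, the shares in none of the 4 were 7.54% (31 of 411) for HAND2loop and 10.6% (19 of 180) for HAND2ins. Most strong gained peaks of either form were therefore at places where TWIST1(WT) or the other form was called without ALX4.

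Gained peaks of HAND2loop also lay at other positions than those of TWIST1(WT). A promoter, taken as the 1 kb to either side of a protein-coding start site, held 28.2% of HAND2loop gained peaks (interval 27.4 to 29.0) and 16.6% of HAND2ins gained peaks (16.2 to 17.1). In the TWIST1(WT) pairs it held 6.04%, 8.82% and 4.09%. Both HAND2 shares lay above all 9 TWIST1(WT) combinations, of which the highest was 8.84%. Lost peaks were the reverse: 8.66% of HAND2loop and 5.21% of HAND2ins lost peaks were in promoters, against 18.8%, 18.0% and 9.13% for TWIST1(WT). Peaks kept in both arms had promoter shares of 24.2% to 27.9% in the 4 HAND2 lists and 25.0% to 27.9% in the 6 TWIST1(WT) lists, which overlap.

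The composite motif was more frequent with ALX4 in both HAND2 forms, and it remained less frequent than in TWIST1(WT). HAND2loop had the motif in 13 peaks alone, 0.0720% (interval 0.0421 to 0.123), and in 81 with ALX4, 0.355% (0.286 to 0.441). HAND2ins had it in 14 peaks alone, 0.0466% (0.0277 to 0.0782), and in 149 with ALX4, 0.316% (0.270 to 0.371). The intervals of the arms did not overlap in either form. TWIST1(WT) had it in 0.190%, 0.178% and 0.152% of peaks alone and in 0.860%, 1.02% and 0.758% with ALX4, that is 0.173% ± 0.0197 and 0.879% ± 0.132 (SD, n = 3). The arms were 0.706 points apart, with a two-sided exact permutation p = 0.1, the smallest that 3 against 3 lists allow. The HAND2 forms differed between arms by 0.283 and 0.270 points, below the 0.568 to 0.868 of the 9 TWIST1(WT) combinations. As a ratio of the arms they did not stand below: 4.93 for HAND2loop and 6.79 for HAND2ins, against 3.98 to 6.72. Among all 13 TWIST1 variants measured in this way the HAND2loop and HAND2ins differences ranked 4 and 5.

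Windows of the same length 1000 bp to either side of the summits serve as a reference, not matched in base composition. They held the motif in 0.0305% and 0.0372% of windows around the HAND2loop peaks without and with ALX4, and in 0.0416% and 0.0382% around the HAND2ins peaks. For HAND2ins alone the summit share was 1.12 times the flank share, with overlapping intervals, so a composite signal of HAND2ins alone was not detectable at this depth. For HAND2loop alone the ratio was 2.36, from 13 peaks, and its interval (0.0421 to 0.123) overlapped that of the flanks (0.0170 to 0.0545). With ALX4 the ratios were 9.53 and 8.28. TWIST1(WT) stood at 4.36 to 6.82 alone and at 16.2 to 22.8 with ALX4. The gap of 4 bp had the highest ratio of all gaps from 0 to 20 bp in both HAND2 lists with ALX4. The next highest was 5.00, at 16 bp, in HAND2loop and 3.48, at 6 bp, in HAND2ins. Without ALX4 other gaps exceeded it, 16 bp in HAND2loop (2.83) and 15 bp in HAND2ins (2.57).

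**Figure D2:**
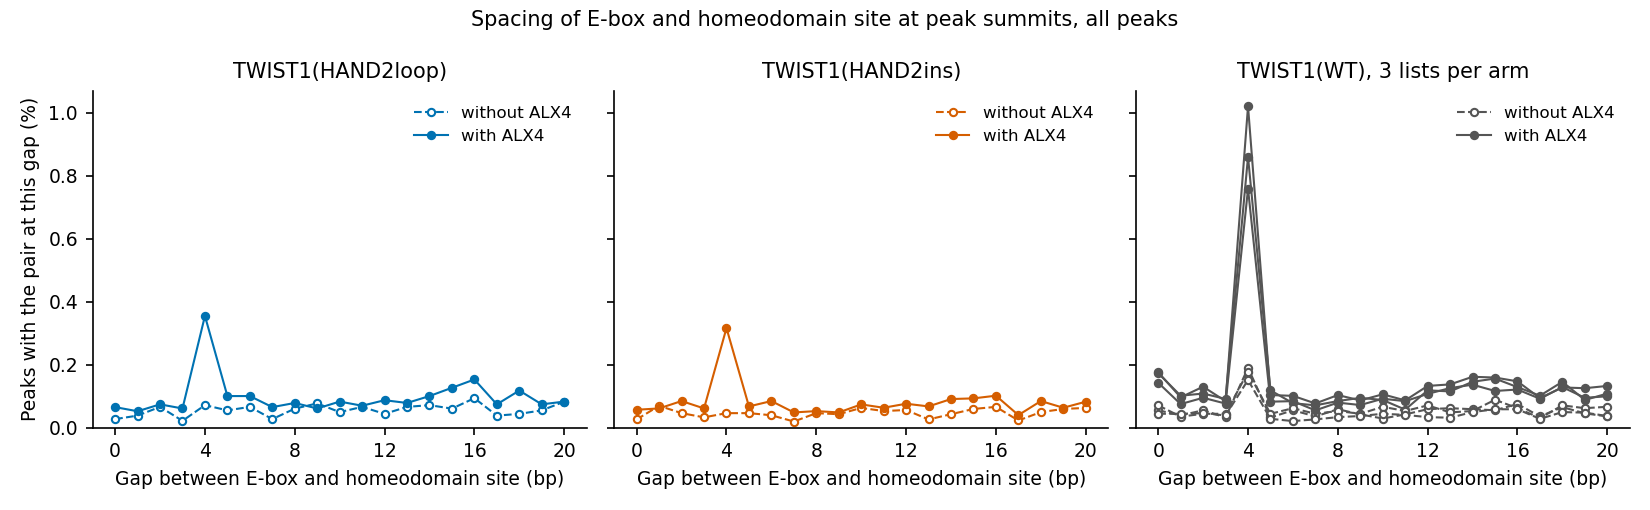
Share of all peaks (%) in which an E-box and a homeodomain site lay at a given gap (bp) within 100 bp of the summit, without ALX4 (open, dashed) and with it (filled, solid). With ALX4 a peak at 4 bp stands at 0.355% in HAND2loop, 0.316% in HAND2ins and 0.758% to 1.02% in TWIST1(WT), while without ALX4 the HAND2 lines show none.

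Composite peaks with ALX4 were stronger than the rest of their list and mostly absent alone. Their median enrichment was 5.84 in HAND2loop, against 4.50 for all peaks of that list, and 4.91 in HAND2ins, against 4.35. In the lists without ALX4 the order was reversed, with 3.56 against 4.07 in HAND2loop and 3.94 against 4.44 in HAND2ins, from 13 and 14 peaks. Of the 81 HAND2loop composite peaks with ALX4, 69 had no overlapping peak without it, 85.2%. Of the 149 in HAND2ins, 122 had none, 81.9%. TWIST1(WT) gave 68.4%, 85.1% and 75.7%. Gained peaks held the motif in 0.522% (HAND2loop) and 0.440% (HAND2ins) of cases and peaks kept from the list alone in 0.125% and 0.139%. Among the 2000 strongest peaks the motif was in 1 peak of each form alone, 0.0500%, and in 18 (0.900%) and 13 (0.650%) with ALX4. TWIST1(WT) had 0.550% ± 0.132 (SD, n = 3) alone and 3.42% ± 0.388 (SD, n = 3) with ALX4, p = 0.1 in the exact permutation test.

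The strongest composite site of HAND2ins with ALX4 was an intergenic peak at chr10:93815934-93816635, 58504 bp into the region downstream of the start of LGI1, a gene for a secreted neuronal protein. Its enrichment was 30.97 in HAND2ins with ALX4 and 13.37 in HAND2loop with ALX4. Neither form alone was listed over that interval. The HAND2loop interval with ALX4 is wider, chr10:93815345-93816587, and a HAND2ins peak of 3.49 without ALX4 lies inside its extra part. TWIST1(WT) had 5.685, 7.497 and 17.27 alone and 20.45, 30.03 and 54.24 with ALX4. The TWIST1(WT) arms did not overlap, and over the narrower HAND2ins interval both HAND2 forms were listed only with ALX4.

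An intergenic peak at chr1:116855323-116856391 near PTGFRN, which encodes a membrane glycoprotein related to prostaglandin F receptor signalling, gave the next value. It had an enrichment of 26.35 in HAND2ins with ALX4 and no peak in HAND2ins alone. HAND2loop had 3.883 alone and 13.29 with ALX4. TWIST1(WT) had 9.953, 15.26 and 16.47 alone and 23.89, 29.61 and 66.83 with ALX4. Here too the TWIST1(WT) arms did not overlap.

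In an intron at chr1:59692555-59693112, nearest to HOOK1, a gene for an adaptor of microtubule transport, HAND2loop and HAND2ins had no peak alone and enrichments of 10.95 and 20.41 with ALX4. TWIST1(WT) had 8.252, 14.95 and 13.81 alone and 10.70, 31.85 and 22.18 with ALX4, and these arms overlap. At chr14:51086811-51087333, in an intron near TRIM9, a ubiquitin ligase gene, the order was different. HAND2ins had 14.57 alone and 17.54 with ALX4, and HAND2loop had 9.659 and 15.14. TWIST1(WT) had 9.166, 5.803 and 12.18 alone and 3.360, 5.307 and 5.064 with ALX4, so all 3 of its lists with ALX4 lay below its lists alone.

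In HAND2loop with ALX4 the highest composite site was intergenic, at chr1:222464922-222465998 near HHIPL2, a relative of the hedgehog-binding protein HHIP. HAND2loop had 3.301 alone and 18.66 with ALX4, while HAND2ins had 9.451 and 10.14. TWIST1(WT) had 3.523, 13.54 and 6.713 alone and 39.29, 38.25 and 45.62 with ALX4. In an intron at chr21:29299268-29300823, nearest to the start of BACH1, a repressor of haem-responsive genes, both forms were listed in both arms. HAND2loop had 8.692 and 17.76, and HAND2ins had 8.462 and 17.49, without and with ALX4. Those pairs are close to each other, and TWIST1(WT), with 8.301, 20.11 and 14.43 alone and 15.75, 19.27 and 30.34 with ALX4, had overlapping arms.

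A site in an intron at chr4:57101154-57101727, nearest to IGFBP7, which encodes a secreted insulin-like growth factor binding protein, had no peak in either form alone. It reached 16.15 in HAND2loop and 10.53 in HAND2ins with ALX4. TWIST1(WT) was not listed, 6.447 and 8.629 alone and had 6.881, 23.38 and 14.38 with ALX4. At chr17:39939516-39940428, an intron near LRRC3C, a gene for a leucine-rich repeat protein, HAND2loop had 4.075 alone and 15.38 with ALX4, and HAND2ins had 4.405 and 13.26. TWIST1(WT) had 6.908, 4.817 and 7.764 alone and 14.91, 12.96 and 28.24 with ALX4, without overlap between arms. Of these 8 leading composite sites, all but the one near TRIM9 lay in the neural crest set described further on.

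The homeodomain site by itself separated the HAND2 forms from TWIST1(WT) more clearly. It lay in 8.34% of HAND2loop peaks alone (interval 7.94 to 8.75) and 10.4% with ALX4 (10.1 to 10.8), and in 6.83% (6.55 to 7.12) and 9.63% (9.36 to 9.90) of HAND2ins peaks. TWIST1(WT) alone had 6.95% ± 0.786 (SD, n = 3), with the HAND2ins value inside its range, and with ALX4 18.4% ± 1.28 (SD, n = 3), with p = 0.1 in the exact permutation test. The differences between arms were 2.11 and 2.80 percentage points in the HAND2 forms and 9.38 to 13.2 in the TWIST1(WT) combinations. Among the 2000 strongest peaks they were 2.75 and 4.05 against 15.6 to 21.3. Over the 13 variants the HAND2ins difference ranked 4 and the HAND2loop difference 10. The substitutions L138F and L138Y had 10.9 and 8.72 points, and all other variants lay between 0.196 and 3.57. Flank windows held the site in 14.0% (HAND2loop) and 14.2% (HAND2ins) of cases with ALX4, so the summits of both HAND2 lists stayed below their flanks. The TWIST1(WT) summits with ALX4, at 17.0% to 19.3%, stood above their flanks of 15.7% to 15.9%.

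The base composition of the summit windows was lower in GC with ALX4 in TWIST1(WT) and higher with ALX4 in HAND2loop, although the homeodomain site share was higher in both. Their median GC content was 51.2% and 54.2% in HAND2loop and 52.7% and 52.2% in HAND2ins, without and with ALX4. In TWIST1(WT) it was 53.2% to 53.7% alone and 46.3% to 48.3% with ALX4. Among the 2000 strongest peaks it was 51.7% and 53.7% in HAND2loop and 53.2% and 54.2% in HAND2ins. TWIST1(WT) there had 52.7% to 55.2% alone and 46.8% to 49.3% with ALX4. Flank windows with ALX4 had a median GC of 45.3% in HAND2loop, 44.8% in HAND2ins and 42.8% in TWIST1(WT). Summits and flanks were thus not matched in GC. The part of GC content in the site shares was not tested.

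E-boxes went in opposite directions among strong peaks. They lay in 71.9% of the 2000 strongest HAND2loop peaks alone and 76.6% with ALX4 (interval 74.7 to 78.4), and in 73.4% and 76.4% of those of HAND2ins. In TWIST1(WT) they lay in 74.5%, 77.7% and 77.9% alone and in 66.2%, 68.3% and 67.6% with ALX4, that is 76.7% ± 1.91 and 67.3% ± 1.04 (SD, n = 3), with p = 0.1 in the exact permutation test. Both HAND2 forms were higher with ALX4 and all 9 TWIST1(WT) combinations lower, by -6.20 to -11.7 points. The intervals of the arms overlapped in HAND2ins (71.4 to 75.3 and 74.5 to 78.2) and were apart in HAND2loop (69.8 to 73.8 and 74.7 to 78.4). Over all peaks HAND2loop had 49.4% and 52.1%, HAND2ins 52.6% and 51.3%, and TWIST1(WT) 50.6% ± 3.28 and 45.0% ± 1.62 (SD, n = 3). There HAND2ins was lower with ALX4 as well, by an amount (-1.33 points) inside the range of the TWIST1(WT) combinations (-0.590 to -10.4). Flank windows held an E-box in 22.5% to 23.9% of cases around the HAND2 peaks.

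The form of the E-box differed too. CACATG, which is not among the E-boxes counted above, lay in 39.6% of the 2000 strongest HAND2loop peaks and 41.45% of those of HAND2ins without ALX4, against 31.1% to 36.0% in TWIST1(WT). With ALX4 it lay in 34.05% and 34.75%, against 23.05% to 24.15%. CACGTG, the palindrome read by MYC-type bHLH dimers, lay in 10.7% and 13.55% with ALX4, against 4.85% to 5.70% in TWIST1(WT). Without ALX4 it lay in 10.05% and 13.55%, against 8.70% to 12.6%, where HAND2loop falls inside the TWIST1(WT) range. CAGATG was at 50.4% and 52.15% with ALX4, against 40.4% to 42.65%, and at 47.5% and 49.05% alone, against 49.55% to 54.6%. Of all 10 E-box forms CANNTG, 6 were more frequent in both HAND2 lists with ALX4 than in every TWIST1(WT) list with ALX4. Beside the 3 above these were CACCTG (28.35% and 29.5%, against 20.65% to 21.55%), CAGCTG (36.8% and 35.25%, against 30.1% to 34.35%) and CATATG (8.70% and 8.15%, against 7.1% to 7.3%). The other 4 were less frequent in both. CAAATG lay in 9.90% of each, against 14.25% to 16.3%, and CAATTG in 2.50% and 2.2%, against 3.85% to 4.80%. CAACTG lay in 8.55% and 8.30%, against 10.6% to 11.35%, and CAAGTG in 10.55% and 9.70%, against 11.15% to 12.05%. Around the HAND2 peaks of all ranks, flank windows held CACATG in 10.4% to 11.6%, CACGTG in 2.34% to 2.63% and CAGATG in 12.1% to 12.7% of cases.

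**Figure D3:**
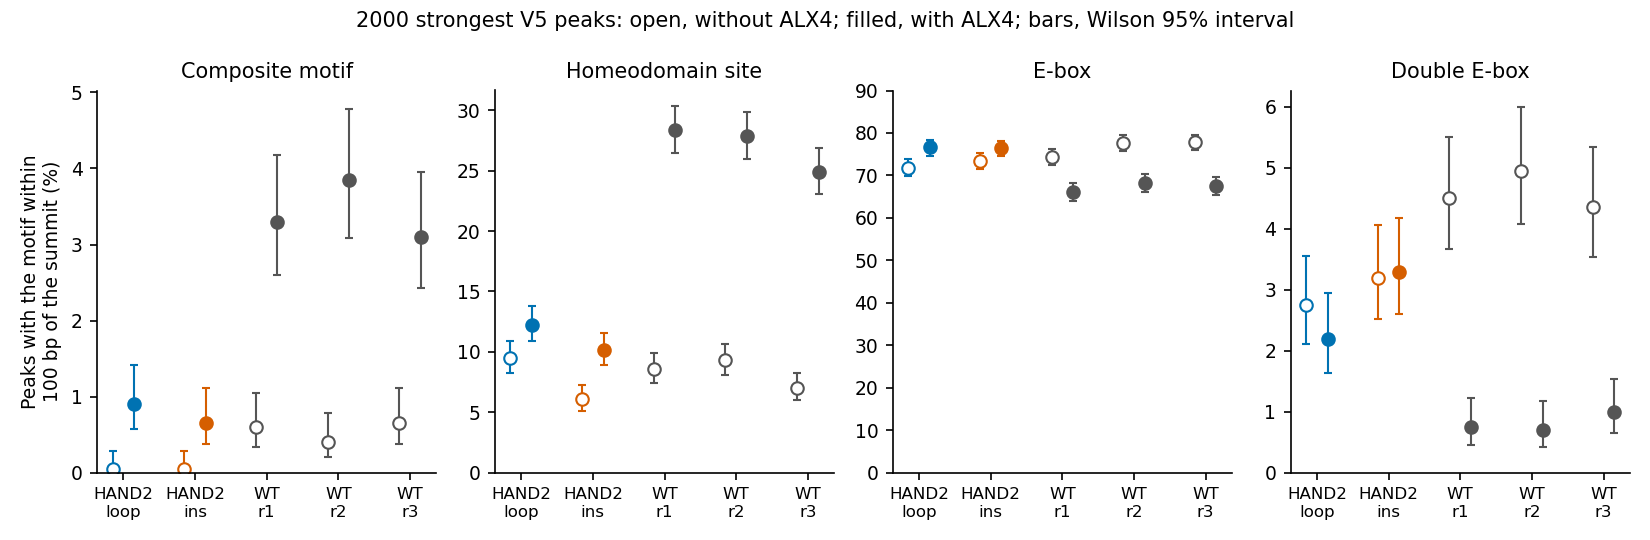
Share of the 2000 strongest V5 peaks of each list (%) with the composite motif, a homeodomain site, an E-box or a double E-box within 100 bp of the summit, without ALX4 (open) and with it (filled), with Wilson 95% intervals. Filled TWIST1(WT) points stand apart from the open ones in all 4 panels. With minus without ALX4, HAND2loop and HAND2ins differ by 0.850 and 0.600 points for the composite motif and 2.75 and 4.05 for the homeodomain site. For the E-box they differ by 4.75 and 3.00 points, and for the double E-box by -0.550 and 0.100. The HAND2 intervals of the arms are apart for the composite motif and homeodomain site in both forms, and for the E-box in HAND2loop.

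A double E-box, a pair of E-boxes 5 bp apart, is a site that TWIST1 can occupy with more than one dimer. It lay in 0.753% of HAND2loop peaks alone (interval 0.637 to 0.890) and 0.535% with ALX4 (0.448 to 0.638), and in 0.748% (0.657 to 0.852) and 0.788% (0.712 to 0.872) of HAND2ins peaks. TWIST1(WT) had 0.968%, 1.20% and 0.930% alone and 0.251%, 0.302% and 0.285% with ALX4, p = 0.1 in the exact permutation test. With ALX4 both HAND2 forms lay above every TWIST1(WT) list, and alone both lay below every one. The former was not particular to them: over the 13 variants the share with ALX4 ran from 0.418% to 1.25%. Among the 2000 strongest peaks HAND2loop had 2.75% and 2.2% and HAND2ins 3.20% and 3.30%, with overlapping intervals between arms, against 4.60% ± 0.312 and 0.817% ± 0.161 (SD, n = 3) in TWIST1(WT). Flank windows held it in 0.0404% to 0.0554% of cases around HAND2 peaks.

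Sites defined on TWIST1(WT) alone give a view that does not rest on the HAND2 lists. Sites found in all 3 TWIST1(WT) lists with ALX4 and in none of the 3 without numbered 5176 (gained), sites in all 6 lists 6583 (constant) and sites in all 3 lists alone and in none with ALX4 1405 (lost). HAND2loop overlapped 4.37% of the gained sites alone and 12.4% with ALX4 (interval 11.6 to 13.4), and HAND2ins 5.64% and 25.6% (24.5 to 26.8). When the sites were defined by 2 TWIST1(WT) pairs and read in the pair left out, the overlap was 8.95%, 4.79% and 24.7% alone and 48.3%, 67.3% and 89.3% with ALX4. Both HAND2 forms were higher with ALX4, and both lay below every held-out TWIST1(WT) list with ALX4. HAND2ins with ALX4, with its 47086 peaks, covered fewer of them than TWIST1(WT) replicate 1 with ALX4, with 29430.

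The constant sites were mostly occupied by both forms. HAND2loop overlapped 68.4% of them alone and 85.8% with ALX4, and HAND2ins 83.9% and 96.1%. On the sets defined by 2 pairs, leaving out pairs 1, 2 and 3 in turn, held-out TWIST1(WT) lists overlapped 79.6%, 74.6% and 97.0% alone. With ALX4 they overlapped 69.4%, 86.4% and 98.8%. HAND2loop overlapped 60.6%, 57.3% and 66.7% of the same sets alone, below each held-out list alone, and 77.5%, 76.7% and 84.1% with ALX4. HAND2ins overlapped 78.0%, 74.4% and 82.1% alone and 91.9%, 91.9% and 94.9% with ALX4.

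Sites that TWIST1(WT) lost with ALX4 showed another order. HAND2loop overlapped 31.0% of the 1405 sites alone (interval 28.6 to 33.4) and 29.0% with ALX4 (26.7 to 31.4), and HAND2ins 60.4% (57.8 to 62.9) and 68.5% (66.0 to 70.8). In the held-out TWIST1(WT) pairs the overlap was 47.6%, 35.2% and 90.2% alone and 5.94%, 11.6% and 52.3% with ALX4. All 3 TWIST1(WT) pairs were lower with ALX4. HAND2ins was higher with ALX4, also on all 3 sets defined by 2 pairs. Its list was longer with ALX4, 47086 against 30062 peaks, and its overlap of the constant sites was higher as well, 96.1% against 83.9%. The part of list length in this rise was not tested. HAND2loop had overlapping intervals on the 1405 sites and no common direction on the other sets. Leaving out pairs 1, 2 and 3 in turn, it had 25.9%, 19.0% and 34.5% alone and 23.7%, 21.8% and 41.9% with ALX4, with intervals apart and higher with ALX4 where pair 2 or pair 3 was left out. These sites held a double E-box in 68 cases, 4.84%, a homeodomain site in 3.70% and the composite motif in none of 1405, which allows a share of up to 0.273% (upper Wilson limit).

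**Figure D4:**
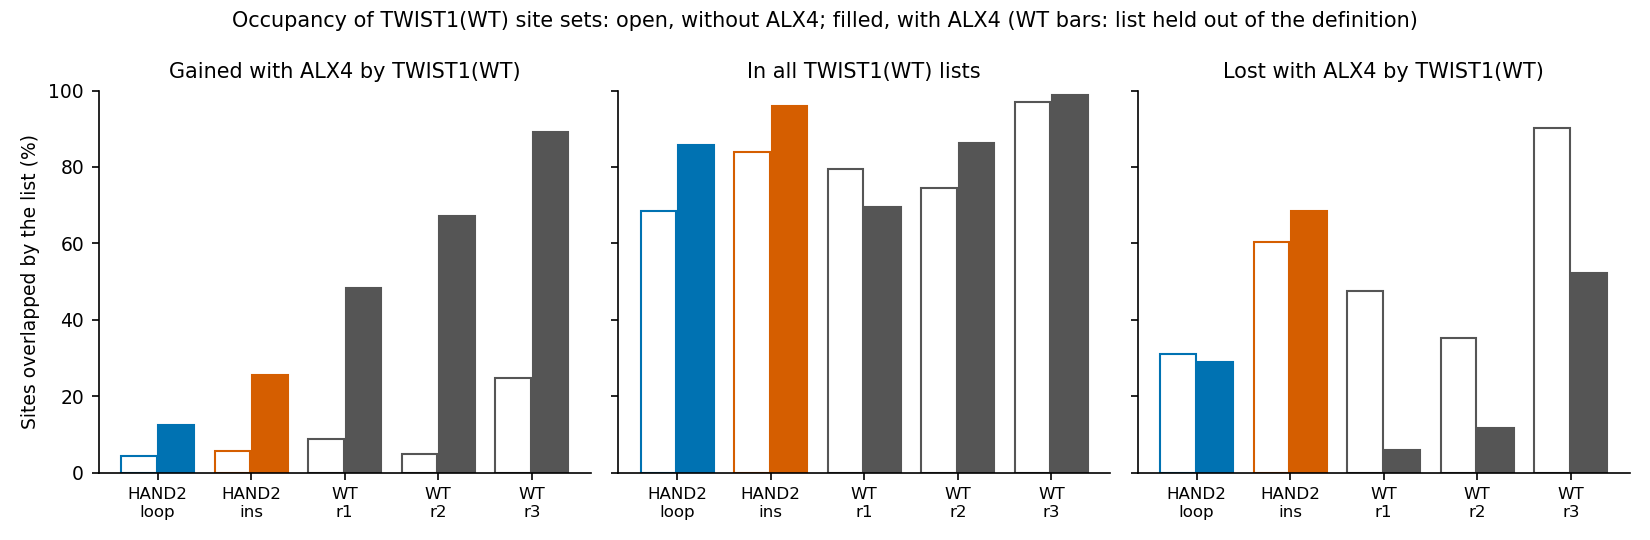
Share of TWIST1(WT) sites gained with ALX4, constant or lost with ALX4 (%) that each list overlapped, without ALX4 (open) and with it (filled); for TWIST1(WT) the sites were defined by the other 2 pairs. HAND2loop and HAND2ins with ALX4 reach 12.4% and 25.6% of the gained sites, and keep 29.0% and 68.5% of the lost ones.

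Gained sites with both an E-box and a homeodomain site but without the composite motif were not counted as a class. Among gained sites with an E-box only, a homeodomain site only or neither, the intervals of the occupied shares overlapped. With ALX4, HAND2loop overlapped 12.9% of those with an E-box and no homeodomain site, 10.7% of those with a homeodomain site and no E-box and 11.7% of those with neither. The HAND2ins shares were 25.8%, 23.9% and 24.4%. Of the 110 gained sites with the composite motif HAND2loop overlapped 3 alone and 15 with ALX4, 13.6% (interval 8.44 to 21.3), and HAND2ins 4 and 39, 35.5% (27.1 to 44.7). The interval of HAND2ins lay above its 25.6% for all gained sites, but on each of the 3 sets defined by 2 pairs it included the share of all gained sites (28.4%, 30.1% and 38.2% of composite sites against 23.8%, 23.9% and 33.3%). That of HAND2loop included its 12.4%. Held-out TWIST1(WT) lists with ALX4 overlapped 57.8%, 83.1% and 94.9% of composite gained sites. Of the 31 constant sites with the motif, HAND2loop overlapped 17 alone and 27 with ALX4, and HAND2ins 18 and 31.

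Cranial neural crest cells give a measure of where endogenous TWIST1 binds. The neural crest set holds the 42318 TWIST1 peaks of unedited human cranial neural crest cells, differentiated from H9 embryonic stem cells, that were found in both replicates. These libraries, precipitated with an antibody to TWIST1, are the starting time point (0 h) of a time course with the degrader dTAGV-1. Among the 2000 strongest peaks, the set overlapped 31.6% (interval 29.6 to 33.7) and 49.75% (47.6 to 51.9) of HAND2loop peaks without and with ALX4, and 31.0% (29.0 to 33.1) and 47.85% (45.7 to 50.04) of HAND2ins peaks. TWIST1(WT) gave 47.1% ± 4.12 and 74.9% ± 1.03 (SD, n = 3), p = 0.1 in the exact permutation test. Both forms were below TWIST1(WT) in each arm, and with ALX4 they reached the level of TWIST1(WT) alone, which ran from 44.2% to 51.8%. Over all peaks HAND2loop had 20.1% and 25.0%, HAND2ins 17.3% and 17.6%, and TWIST1(WT) 20.3% ± 4.20 and 26.5% ± 4.38 (SD, n = 3, exact permutation p = 0.2). The composite peaks with ALX4 lay in the set in 65 of 81 cases in HAND2loop, 80.2%, and in 111 of 149 in HAND2ins, 74.5%, against 71.0% to 76.3% in TWIST1(WT).

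HAND2loop and HAND2ins shared part of their gained peaks. Of the HAND2loop gained peaks 4852, 36.7%, overlapped a HAND2ins gained peak, and 17.6% of the longer HAND2ins set overlapped a HAND2loop one. These shared peaks held the composite motif in 46 cases, 0.948%, a homeodomain site in 12.6% and an E-box in 47.4%. Gained peaks of the TWIST1(WT) pairs overlapped between 15.4% and 27% of the HAND2loop gained peaks and between 12.8% and 21.5% of the HAND2ins ones.

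Sites gained in both HAND2 forms and in all 3 TWIST1(WT) pairs numbered 314. They held the composite motif in 9 cases, 2.87%, a homeodomain site in 98, 31.2%, and an E-box in 182, 58.0%, and 112 of them, 35.7%, lay in the neural crest set. Over the 5176 TWIST1(WT) gained sites these shares were 2.13%, 28.8%, 49.6% and 39.3%, in the same order. The highest by mean rank was in an intron near ATE1, an arginyltransferase gene, at chr10:121865395-121865960. It had neither motif, and enrichments of 11.42 in HAND2loop, 11.67 in HAND2ins and 15.61, 12.68 and 18.11 in TWIST1(WT), all with ALX4. Next were an intron of the region of CNTN5, a neuronal cell adhesion gene, at chr11:99370830-99371201, with 10.36, 11.99 and 8.057, 14.54 and 17.61 in the same order. An intergenic site near GAS2, a cytoskeletal gene, at chr11:22491744-22492289, had 12.12 in HAND2loop, 7.119 in HAND2ins and 20.59, 31.58 and 47.51 in TWIST1(WT). Here both HAND2 forms lay below all 3 TWIST1(WT) lists.

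The composite site of that group, whose sequence is shown above, lay in an intron near SCIN, a gene for an actin-severing protein, at chr7:12607039-12607513. With ALX4 its enrichment was 8.927 in HAND2loop, 9.620 in HAND2ins and 7.980, 25.80 and 19.71 in TWIST1(WT), and no list alone held it. The intergenic site near CHST11, a chondroitin sulfotransferase gene, had 9.199, 8.000 and 11.65, 19.05 and 21.21. The site in an intron near THAP2 had 12.27, 8.842 and 8.623, 16.46 and 13.91. Across these 6 sites the HAND2 values lay between 7.119 and 12.27 and the TWIST1(WT) values between 7.980 and 47.51.

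Strong gained sites of one form were often listed for other constructs. The strongest HAND2loop gained peak, in an intron at chr22:19407802-19408811 nearest to MRPL40, a mitochondrial ribosome gene, had 23.42 with ALX4. It was listed in HAND2ins alone at 10.33 and in TWIST1(WT) alone at 14.51, 21.03 and 19.39. A peak in the promoter of ATOSB had 17.93 in HAND2loop with ALX4 and was not listed alone, and HAND2ins had 3.366 and 11.76 without and with ALX4. An intron peak near PGAP1, a gene of GPI-anchor remodelling, had 17.91 in HAND2loop, 6.429 and 16.23 in HAND2ins, and 25.92 to 42.37 in TWIST1(WT) with ALX4. An intron peak nearest to ENGASE, a glycan-cleaving enzyme gene, had 18.91 in HAND2loop with ALX4, 6.026 and 14.57 in HAND2ins, and at most 4.835 in TWIST1(WT). At these 4 sites HAND2ins was listed in both arms and higher with ALX4.

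Among the strongest HAND2ins gained peaks, the first and the second were the composite sites near LGI1 and PTGFRN. The third, near ZNF707, had 25.83 and was not listed in either arm of HAND2loop. TWIST1(WT) had 9.999, 25.19 and 9.063 there alone and 18.27, 35.38 and 27.77 with ALX4. An intergenic peak at chr2:181106099-181106702 near UBE2E3, a ubiquitin-conjugating enzyme gene, had 25.28 in HAND2ins and 11.62 in HAND2loop with ALX4, and neither was listed alone. TWIST1(WT) was not listed alone and had 5.467, 7.960 and 5.853 with ALX4, so both HAND2 values exceeded all 3 of TWIST1(WT). An intergenic peak at chr6:10221136-10221670, nearest to TFAP2A, a neural crest transcription factor gene, had 24.28 in HAND2ins and 6.204 in HAND2loop with ALX4, and 13.14, 28.81 and 31.10 in TWIST1(WT) with ALX4.

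The strongest peaks seen only without ALX4 had lower enrichment than the strongest gained peaks. Over all lost peaks the median was 3.79 in HAND2loop and 3.95 in HAND2ins, against 4.16 and 3.92 over all gained peaks. The highest of HAND2loop was intergenic at chr1:165056899-165057346, nearest to LMX1A, a homeodomain factor gene, with 13.64. HAND2ins was listed there in both arms, at 9.749 and 17.18. Peaks nearest to OR51B4, an olfactory receptor gene, and MCTP2 followed with 12.42 and 11.73. The highest of HAND2ins were an intron peak near MRPL3, a mitochondrial ribosome gene, with 12.43, an intergenic peak near IGF1R, the insulin-like growth factor 1 receptor gene, with 12.14, and an intron peak near PRKACB, a gene for a catalytic subunit of protein kinase A, with 11.14. None of these 6 held the composite motif, which lay in 0.0719% of all HAND2loop lost peaks and 0.0391% of all HAND2ins lost peaks.

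Genes were read from sites by position: a gene has a gained site when a gained peak lies within 100 kb of its start site and no other protein-coding start is nearer. The value given for a gene is the highest enrichment among its gained sites in a list. It can come from a different site in each list, and from a different number of sites, so it does not compare binding at a shared site. Of 19962 protein-coding genes, 38.1% had a gained site in HAND2loop, 55.5% in HAND2ins and 29.4% in both forms. Of 39 face and limb mesenchyme factors, 23 had one in HAND2loop, 33 in HAND2ins and 21 in both. These include PRRX1, a homeodomain gene of limb and face mesenchyme, with highest gained enrichments of 6.34 and 8.43 in HAND2loop and HAND2ins, against 4.48 to 7.76 in the TWIST1(WT) pairs. MSX2, a homeodomain gene of skull and limb, had 9.09 and 5.32, against 8.77 to 10.8, and PAX3, a neural crest gene, had 9.11 and 6.52, against 11.7 to 16.5. NR2F1, a nuclear receptor gene of the neural crest, had 4.40 and 5.35, against 10.3 to 28.7 in the TWIST1(WT) pairs.

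Of 23 mesenchymal and matrix genes, 18 had a gained site in HAND2loop, 16 in HAND2ins and 14 in both. Among them ZEB2, a repressor of epithelial genes, had 6.33 and 6.41, against 10.4 to 20.02 in TWIST1(WT), and CDH11, a mesenchymal cadherin, had 3.62 and 10.9, against 4.08 to 8.73. Of 21 genes of BMP, FGF and hedgehog signalling, 12, 20 and 12 had one. PTCH1, the hedgehog receptor, had 10.2 and 5.26, against 4.73 to 14.3, and NOG, a BMP antagonist, 3.66 and 4.20 against 8.60 to 16.4 in TWIST1(WT). Of 15 bHLH partners and inhibitors, 8, 15 and 8 had one. TCF3, an E protein gene, had 6.95 and 10.8, against 15.9 and 3.45 in TWIST1(WT) pairs 2 and 3 and no gained site in pair 1. ID1, an inhibitor of bHLH dimers, had 8.66 and 8.59, against 3.44 and 6.09 in pairs 1 and 2 and none in pair 3. Of 15 kidney factors, 9, 13 and 9 had one, with WT1, a regulator of kidney development, at 4.40 and 5.26, against 5.34 to 10.8. All 5 lists, the kidney list included, lay above the shares over all protein-coding genes in both forms. TWIST1(WT) also lay above its shares over all genes for each list, at 52.2% to 89.7% against 34.9% to 49.7%. Lost sites gave the same order: 20.5% of all genes had one in HAND2loop and 23.9% in HAND2ins, against 30.4% to 66.7% and 33.3% to 60.0% of the 5 lists. The kidney list was higher for lost (66.7%) than for gained sites (60.0%) in HAND2loop. The spacing of genes, which sets how far a site can lie from the nearest start, was not tested. A binding site near a gene does not show that the gene is regulated, and no expression was measured in these cells.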

How the data were processed

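The values analysed are V5 ChIP-seq peak lists in hg38, 1 per library and not pooled. Bowtie2 2.4.1, SAMtools 1.10, MACS2 2.2.7.1 and deepTools 3.5.0 are named in the submitters' processing notes, without their settings. Each deposited list gives, per peak, a fold enrichment (a ratio) and the -log10 of a p-value and a q-value read from the usual narrowPeak columns of these headerless files. A repeated interval was represented by its summit of highest -log10 p. The lowest -log10 q was 1.30 or 1.31.

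Overlaps of at least 1 bp, motif scans, Wilson 95% intervals and exact two-sided permutation tests were computed with Python 3.11.15, pandas 2.3.3, scipy 1.17.1 and pysam 0.24.0, and checked against bedtools 2.31.1 and on simulated data. Genes come from GENCODE 44. TWIST1(WT) replicate 1 takes its number from the order of samples, the others from the labels.

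Named sites are those outside pUC19 peaks, outside exons of TWIST1, ALX4 and HAND2, with the highest enrichment: 5 gained, 3 found only without ALX4 and 5 composite per form, and the 6 best by mean rank among sites gained in all 5 pairs. Gene examples come from lists of factors of these tissues. One site named by this rule is not reported here. Members, lists and rules were chosen with earlier results of these data known. Protein sequences were not used here. Alternatives were reciprocal overlap of 50%, the 2000 strongest peaks, a stricter q, a narrower motif window, pUC19 peaks removed and replicates left out. Ranges over all 9 combinations of TWIST1(WT) lists without and with ALX4 were added after seeing the data.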

Additional observations from a re-analysis of the deposited data

Results flagged for a closer look

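Among strong peaks the E-box share differed between arms in opposite directions in the HAND2 forms and in TWIST1(WT). Among the 2000 strongest peaks the difference with minus without ALX4 was 4.75 percentage points in HAND2loop and 3.00 in HAND2ins, and -8.25, -9.40 and -10.3 in the 3 same-numbered pairs of TWIST1(WT) lists, with the same sign in all 9 combinations of those lists. Over all peaks it was 2.77 in HAND2loop, against -3.82, -7.14 and -5.87, while HAND2ins, at -1.33, had the direction of TWIST1(WT). The double E-box share of HAND2ins differed by 0.100 points among the 2000 strongest peaks and by 0.0395 points over all peaks, against -3.35 to -4.25 and -0.646 to -0.895 in TWIST1(WT). These HAND2ins double E-box values lie within counting error of no difference. The E-box intervals of the HAND2ins arms also overlapped among the 2000 strongest peaks. With 1 pair per HAND2 form the differences from TWIST1(WT) were not tested.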

How the results depend on the processing

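Each HAND2 form rests on 1 list per arm, the read depth behind a list is unknown, and no alternative replaces a second list. The gained share was 68.0% in HAND2loop and 69.4% in HAND2ins with a reciprocal overlap of 50%, 20.55% and 9.0% among the 2000 strongest peaks, and 66.2% and 62.6% among peaks whose -log10 q reached 5. The composite motif difference of HAND2loop and HAND2ins was 0.850 and 0.600 points among the 2000 strongest peaks, 0.397 and 0.341 with that q, and 0.158 and 0.164 in a window of 50 bp to either side of the summit. The other motif and neural crest alternatives were added after seeing the data. The homeodomain site differences were 2.75 and 4.05 among the 2000 strongest peaks and 1.52 and 1.49 in that narrower window. The double E-box difference of HAND2loop was -0.550 among the 2000 strongest peaks and -0.455 with that q, and that of HAND2ins turned to -0.122 with that q. The neural crest difference was 18.2 and 16.9 among the 2000 strongest peaks, and 0.990 with that q in HAND2ins. The occupied share of gained TWIST1(WT) sites was 7.07% and 12.9% with reciprocal overlap and 11.3% and 22.7% with that q. Leaving out 1 TWIST1(WT) replicate at a time gave 11.4% to 17.4% for HAND2loop and 23.8% to 33.3% for HAND2ins, the highest without replicate 3 in each. The cause of these moves was not tested, beyond fewer peaks entering each stricter setting. Removing pUC19 peaks kept every direction.

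The TWIST1(WT) composite difference was 0.638 to 0.756 with 1 replicate left out. With the replicate number as a block it was 0.706, with an exact sign-flip p = 0.25, the smallest that 3 pairs allow. Deviations of same-numbered lists correlated at 0.00887, 0.00141 and -0.0937, and those of differently numbered lists at -0.102 to 0.0918. These values cannot show whether same-numbered lists share a culture or a batch. Median peak width was 630, 499 and 468 bp in replicates 1 to 3 alone and 659, 500 and 480 bp with ALX4.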
